A study of Mus musculus with 6 samples.

Results

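A set of 10 immediate early genes was followed in whole hearts of mouse embryos at embryonic day 13.5: *Fos*, *Fosb*, *Fosl2*, *Jun*, *Junb*, *Egr1*, *Egr2*, *Egr3*, *Ier2* and *Atf3*. They were taken as the rows of the raw count table whose symbol, joined by gene identifier from the authors' second table, was one of these names. All 10 were found among the 45792 genes of the table, and all 10 were among the 17125 genes with enough counts to be tested. The count table held 3 control hearts and 3 *Tie2Cre;Ino80 fl/fl* hearts, called mutant here. In the mutant embryos the *Tie2* promoter drives Cre in endothelial cells, the endocardium and their descendants, where it deletes an *Ino80* exon flanked by *loxP* sites. Cardiomyocytes do not express this Cre and keep the gene. The labels call the control embryos wild-type and give C57BL/6 for all hearts. The paper instead counts, for its measurements of heart muscle, every other genotype as control. Its methods mate *Ino80 flox*/+ males that carry Cre with *Ino80 fl/fl* females, and describe mixed backgrounds. In that cross each embryo inherits a floxed allele from its mother. For the RNA samples the methods name *Tie2Cre;Ino80 fl/fl* dams, which differs from that cross. Embryos of both sexes were used and not told apart.

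Immediate early genes are transcribed within minutes of a signal, without new protein being made first. Growth factors, stretch and stress act through kinases on factors already bound at their promoters, such as SRF with its partners and CREB. The products are themselves mostly transcription factors. FOS and JUN proteins pair to form AP-1, the EGR proteins are zinc finger factors, and ATF3 pairs with JUN proteins under stress. Their transcripts are short-lived, so the level in a tissue follows its recent signals.

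Promoter windows from RefSeq (build GRCm38.p6) were taken for 7 of the 10 genes. They run from 250 bases before to 50 bases after a transcript start. The windows of 4 of these 7 genes are shown as examples that hold elements through which the signals above are known to act. Those of *Fosb* and *Atf3* also hold such an element and are not shown. Capitals mark each match, on either strand, to the CArG box bound by SRF (CC and GG around a run of A and T), to TGACG (the core of a CREB site), to TGANTCA (an AP-1 site), to TGACATCA (the AP-1-like site of *Jun*) or to TATAAA. No match overlapped another in the windows shown.
Fos, chr12:85473640-85473939, plus strand: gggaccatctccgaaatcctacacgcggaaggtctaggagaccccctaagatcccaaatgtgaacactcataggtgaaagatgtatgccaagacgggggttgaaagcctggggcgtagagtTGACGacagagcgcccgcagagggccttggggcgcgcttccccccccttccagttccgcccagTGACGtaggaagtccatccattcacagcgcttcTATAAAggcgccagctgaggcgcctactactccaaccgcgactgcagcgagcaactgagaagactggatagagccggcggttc
Jun, chr4:95052173-95052472, minus strand: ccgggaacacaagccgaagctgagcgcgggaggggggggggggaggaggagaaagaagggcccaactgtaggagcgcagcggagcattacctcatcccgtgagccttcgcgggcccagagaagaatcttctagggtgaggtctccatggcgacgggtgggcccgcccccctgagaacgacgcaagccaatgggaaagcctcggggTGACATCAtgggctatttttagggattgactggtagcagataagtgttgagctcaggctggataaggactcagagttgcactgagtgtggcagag
Junb, chr8:84978699-84978998, minus strand: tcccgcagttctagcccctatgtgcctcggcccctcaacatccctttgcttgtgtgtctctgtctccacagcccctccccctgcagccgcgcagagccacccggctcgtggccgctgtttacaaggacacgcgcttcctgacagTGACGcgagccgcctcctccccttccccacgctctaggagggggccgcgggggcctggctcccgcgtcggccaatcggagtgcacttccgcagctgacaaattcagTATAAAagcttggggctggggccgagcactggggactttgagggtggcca
Egr2, chr10:67537619-67537918, plus strand, 1 of 5 listed windows: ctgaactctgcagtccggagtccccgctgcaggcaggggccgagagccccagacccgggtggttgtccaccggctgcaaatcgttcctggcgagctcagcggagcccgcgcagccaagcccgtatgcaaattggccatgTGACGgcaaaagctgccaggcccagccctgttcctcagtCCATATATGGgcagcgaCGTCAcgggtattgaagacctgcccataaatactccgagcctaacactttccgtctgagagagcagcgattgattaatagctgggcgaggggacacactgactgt

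Counted from the start, the *Fos* window held TGACG from -129 to -125 and from -66 to -62, and TATAAA from -33 to -28. The *Jun* window held TGACATCA from -45 to -38. In *Egr2* a CArG box lay from -72 to -63 between a pair of TGACG matches. The CArG box was in 4 of the 5 windows of *Egr2*, of which 3 overlap each other, and in no window of the other 6 genes, against 1.63% of all 32851 windows. TGACG was found in 7 of the 11 windows of these genes (those of *Fos*, *Fosb*, *Junb* and *Atf3* and 3 of *Egr2*), against 20.8% of all windows. The 3 windows of *Egr2* overlap and hold the same TGACG sites, and by gene TGACG was in 5 of the 7. TATAAA was in *Fos* and *Junb*, against 13.6% of windows. In *Junb* it lay at the listed start, from 1 to 6, and not before it as in *Fos*. TGACATCA was searched as the known site of *Jun*, so its match there was built in. It was in no other of the 7 genes and in 3.62% of all windows. TGANTCA was in none of the 7 genes and in 7.81% of all windows. These matches describe the letters of the windows, and more distant elements were not searched. No window of *Egr1*, *Egr3* or *Ier2* was examined, so the matches say nothing of the elements of these genes.

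The libraries held from 28948836 to 89675692 counts, and the deepest had 3.10 times the counts of the shallowest. Counts of *Ino80* over the whole gene did not separate the groups, with 30.2 to 32.7 CPM in control and 31.8 to 36.5 CPM in mutant hearts (CPM are counts per M counts after TMM scaling, which corrects for composition). The groups are therefore those of the labels. Cardiomyocyte markers summed to between 23826 and 29164 CPM in every heart, whereas liver and lung markers summed to at most 1.91 and 0.48 CPM, with *Fgb*, *Nkx2-1* and *Shh* at 0 in all hearts. Endothelial markers summed to between 789 and 996 CPM. Markers of red blood cells varied widely. The 6 erythroid genes, all detected in all hearts, summed to 4120, 8048 and 18287 CPM in control replicates 1 to 3 and to 2751, 3010 and 5013 CPM in mutant replicates 1 to 3. At an unadjusted p under 0.05, mutant hearts were lower for 3 of them and higher for 1, and none passed after adjustment with edgeR or DESeq2.

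No immediate early gene separated mutant from control hearts. For each of the 10 genes the ranges of the groups overlapped, and none passed the test. Levels instead varied from heart to heart, and many of the genes were highest in the same hearts. Control replicate 3 was the highest control heart for all 10 genes, and mutant replicate 3 the highest mutant heart for 8.

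**Figure D1:**
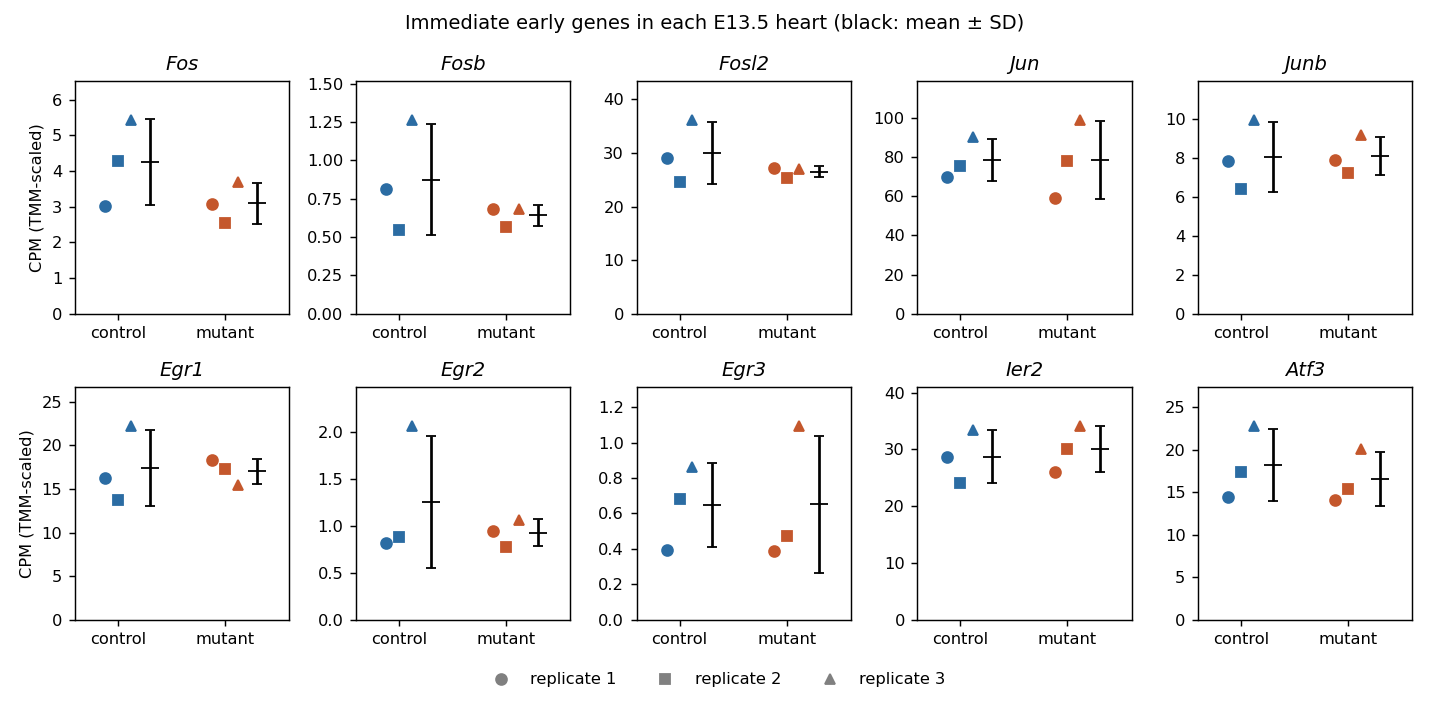
Level of each immediate early gene in each heart, in TMM-scaled CPM on linear axes from 0. Points are hearts (blue control, orange mutant, shape by replicate number) and black bars are the mean ± SD of 3 hearts. The triangle of control replicate 3 is the highest control point in all 10 panels, and the groups overlap in each panel.

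Levels of different genes were compared per kb of exon, as reads per kb per M counts (RPKM). *Jun* was highest, at a mean of 24.6 RPKM over the 6 hearts (range 18.6 to 31.1), followed by *Ier2* at 19.3 RPKM (15.8 to 22.4), and their ranges overlapped. *Atf3* stood apart from its neighbours at 8.06 RPKM (6.55 to 10.6). *Egr1*, *Junb* and *Fosl2* formed a middle group with overlapping ranges, at means of 3.84, 3.50 and 2.92 RPKM. *Fos* was below all of these in RPKM, at 1.56 (1.08 to 2.31). *Egr2*, *Egr3* and *Fosb* were lowest, at means of 0.321, 0.147 and 0.122 RPKM, and each overlapped its neighbour in this order. Within the *Fos* family the order per length was thus *Fosl2*, *Fos* and *Fosb*, without overlap between them.

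*Fos* (chromosome 12, 85473890 to 85477273, plus strand, GRCm38), the classic AP-1 partner of *Jun*, was at 3.02, 4.29 and 5.43 CPM in control replicates 1 to 3. The mutant hearts were at 3.06, 2.54 and 3.69 CPM. A pair of mutant hearts lay inside the control range and mutant replicate 2 lay below it. The means were 4.25 ± 1.21 and 3.10 ± 0.58 CPM (SD, n = 3 each). Mutant over control, the log2 fold change was -0.46 (standard error 0.25, 95% confidence interval -1.03 to 0.12, adjusted p = 0.341 from edgeR). This was the largest difference in size among the 10 genes and was not past the threshold. Since whole hearts were measured, fewer cells that express a gene and less RNA in each cell cannot be told apart in any of these values.

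*Fosb* (chromosome 7, 19302696 to 19310051, minus strand), a close relative of *Fos*, had few counts. Its counts were 31, 16 and 41 in control replicates 1 to 3 and 63, 24 and 20 in mutant replicates 1 to 3. In CPM these were 0.81, 0.54 and 1.27 against 0.68, 0.56 and 0.68. All mutant hearts lay inside the control range, and the log2 fold change was -0.44 (95% confidence interval -1.25 to 0.36, adjusted p = 0.494 from edgeR), so the interval held a 2-fold lower level.

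*Fosl2* (chromosome 5, 32135801 to 32157842, plus strand) encodes FRA2, a FOS protein without the strong activation domain of FOS. The control hearts were at 29.1, 24.7 and 36.2 CPM and the mutant hearts at 27.2, 25.3 and 27.0 CPM. The mutant hearts lay close together, all within the control range. The means were 29.99 ± 5.82 and 26.5 ± 1.07 CPM (SD, n = 3 each), and the log2 fold change was -0.18 (95% confidence interval -0.49 to 0.13, adjusted p = 0.474 from edgeR).

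*Jun* (chromosome 4, 95049034 to 95052222, minus strand), a gene without introns that encodes the main DNA-binding partner in AP-1, was at 69.8, 75.2 and 90.3 CPM in control hearts. In mutant hearts it was at 59.4, 77.8 and 99.1 CPM, so that the lowest and the highest of the 6 hearts were both mutant. The means were 78.5 ± 10.6 and 78.8 ± 19.9 CPM (SD, n = 3 each). Mutant and control hearts thus differed by 0.0025 on the log2 scale (95% confidence interval -0.41 to 0.41, adjusted p = 0.995 from edgeR). An antisense gene, *Junos*, shares 232 bases of exon with *Jun*. Its own counts were between 6 and 57, against 2210 to 5488 for *Jun*, and whether the counting used strand is not given in the sources used here.

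*Junb* (chromosome 8, 84974484 to 84978718, minus strand) encodes a JUN protein that often restrains JUN. It was at 7.83, 6.37 and 9.94 CPM in control and 7.87, 7.22 and 9.16 CPM in mutant hearts, and all mutant hearts lay within the control range. Its log2 fold change was 0.0028 (95% confidence interval -0.41 to 0.41, adjusted p = 0.995 from edgeR). Its exons overlap 173 bases of *Prdx2* on the other strand, a gene that stood at 295 to 335 CPM, so part of the count of *Junb* is uncertain.

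*Egr1* (chromosome 18, 34859823 to 34864984, plus strand), the EGR factor most often induced by growth signals, was at 16.2, 13.8 and 22.2 CPM in control hearts. The mutant hearts lay between these values, at 18.3, 17.3 and 15.5 CPM. The means were 17.4 ± 4.36 and 17.0 ± 1.43 CPM (SD, n = 3 each), and the log2 fold change was -0.03 (95% confidence interval -0.42 to 0.36, adjusted p = 0.936 from edgeR). *Egr1* was also the only gene of the 10 for which mutant replicate 3 was the lowest mutant heart.

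*Egr2* (chromosome 10, 67535475 to 67542188, plus strand), known for its role in myelinating cells and the hindbrain, was at 0.81, 0.89 and 2.07 CPM in control hearts. The mutant hearts were at 0.95, 0.78 and 1.06 CPM. Control replicate 3 was at 67 counts, against 31 and 26 in the other control hearts, although its library was not the deepest of the 3. Between groups the log2 fold change was -0.44 (95% confidence interval -1.34 to 0.46, adjusted p = 0.552 from edgeR). This value rested on that heart: without control replicate 3 it was 0.13.

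*Egr3* (chromosome 14, 70077203 to 70082614, plus strand), a target of VEGF signalling in endothelial cells, had the fewest counts, from 15 to 36 per heart. It was at 0.39, 0.68 and 0.86 CPM in control and 0.39, 0.47 and 1.09 CPM in mutant hearts. Both groups started at the same low level and the highest heart was mutant replicate 3. The log2 fold change was -0.05 with an interval from -1.16 to 1.05 (adjusted p = 0.962 from edgeR), so that the interval held a 2-fold difference in either direction.

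*Ier2* (chromosome 8, 84661331 to 84662852, minus strand), a small nuclear protein gene without introns, was at 28.6, 24.0 and 33.5 CPM in control hearts. In mutant hearts it was at 26.0, 29.99 and 34.1 CPM, so that the highest heart was mutant and the lowest control. The means were 28.7 ± 4.73 and 30.05 ± 4.04 CPM (SD, n = 3 each). The log2 fold change was 0.06 (95% confidence interval -0.27 to 0.39, adjusted p = 0.835 from edgeR), the largest positive value among the 10 genes.

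*Atf3* (chromosome 1, 191170296 to 191218039, minus strand), which is induced by stress signals as well as by growth factors, was at 14.4, 17.4 and 22.8 CPM in control hearts. The mutant hearts were at 14.1, 15.4 and 20.1 CPM. In both groups replicate 1 was lowest and replicate 3 highest, and the lowest mutant heart was just below the lowest control heart. The log2 fold change was -0.14 (95% confidence interval -0.58 to 0.29, adjusted p = 0.702 from edgeR).

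**Figure D2:**
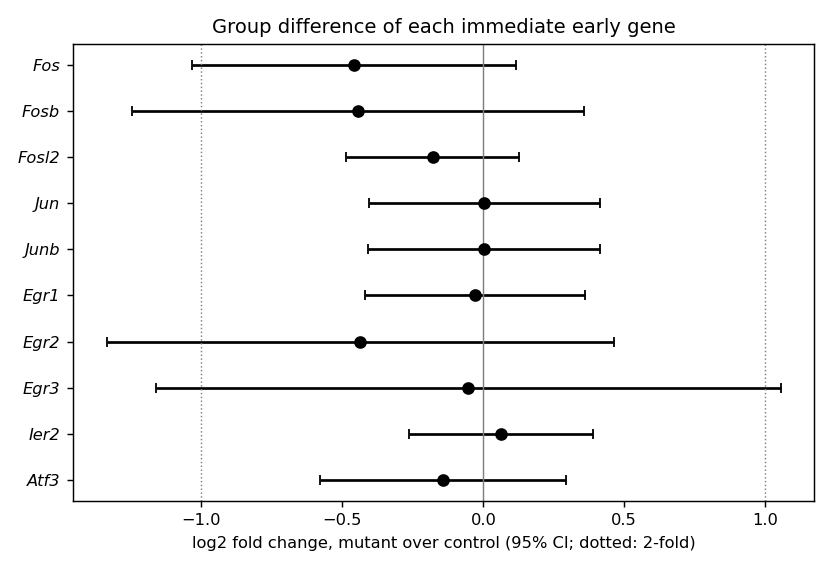
Log2 fold change of mutant over control for each immediate early gene, with its 95% confidence interval from edgeR's quasi-likelihood fit on 3 hearts per group. Dotted lines mark a 2-fold change, every interval spans 0, and 6 of the 10 lie within 2-fold in both directions.

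Over the list, 7 genes had a log2 fold change below 0 and 3 above, where 50.3% of all tested genes were below 0. The median was -0.098 against -0.0017 over all tested genes. None of the 10 passed an adjusted p of 0.05, as did 0 of the 17125 tested genes with edgeR's quasi-likelihood test, so 0% were called higher and 0% lower. Of the 10 genes, 0 had an unadjusted p under 0.05, against 9.48% of tested genes higher and 9.98% lower in mutant hearts. DESeq2 likewise called 0 of the 10 at an adjusted p under 0.05, and 0 at an unadjusted p under 0.05, against 2.67% of its genes called higher and 3.43% lower after adjustment. The groups did not overlap for 0 of the 10 genes and for 27.1% of tested genes. The intervals of 6 genes (*Fosl2*, *Jun*, *Junb*, *Egr1*, *Ier2* and *Atf3*) excluded a 2-fold change in either direction. Those of *Fos*, *Fosb* and *Egr2* reached a 2-fold lower level, and that of *Egr3* a 2-fold change both ways.

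The spread between hearts of the same group was wide for the whole list. The standard deviation of log2 CPM within groups was above the median of all tested genes, 0.158, in 10 of the 10 genes. It ran from 0.20 for *Fosl2* and 0.22 for *Ier2* to 0.53 for *Egr2* and 0.65 for *Egr3*, with a median of 0.297, which 24.7% of tested genes exceeded. From the lowest to the highest of the 6 hearts, levels differed 1.42-fold for *Ier2*, 1.47-fold for *Fosl2*, 1.67-fold for *Jun*, 2.14-fold for *Fos* and 2.81-fold for *Egr3*.

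Counting error alone would give a smaller spread than was observed for each of the 10 genes. In log2 it was 0.30 for *Egr3*, 0.28 for *Fosb* and 0.24 for *Egr2*, but 0.12 for *Fos*, where the observed value was 0.35. For *Jun*, counting error gave 0.026 and the observed standard deviation was 0.29. For *Fosb* and *Egr2* the excess was gone without control replicate 3. Without that heart their standard deviations were 0.25 and 0.18, below the counting error over all hearts. For *Fosb* the excess was also gone without control replicate 2, at 0.278 against a counting error of 0.280. Spread also depends on abundance, so edgeR's dispersion of each gene was set against its trend over genes of like abundance. It was above the trend for 7 of the 10 genes, against 24.8% of all tested genes. *Jun* stood highest, at 2.48 times the trend, above 95.9% of tested genes on that ratio, followed by *Atf3* at 1.69 and *Egr3* at 1.54 times. *Fos* and *Junb*, both at 0.98, and *Fosb*, at 0.79, were not above it. On that ratio these 3 genes were still above 74.2%, 74.1% and 60.0% of tested genes.

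**Figure D3:**
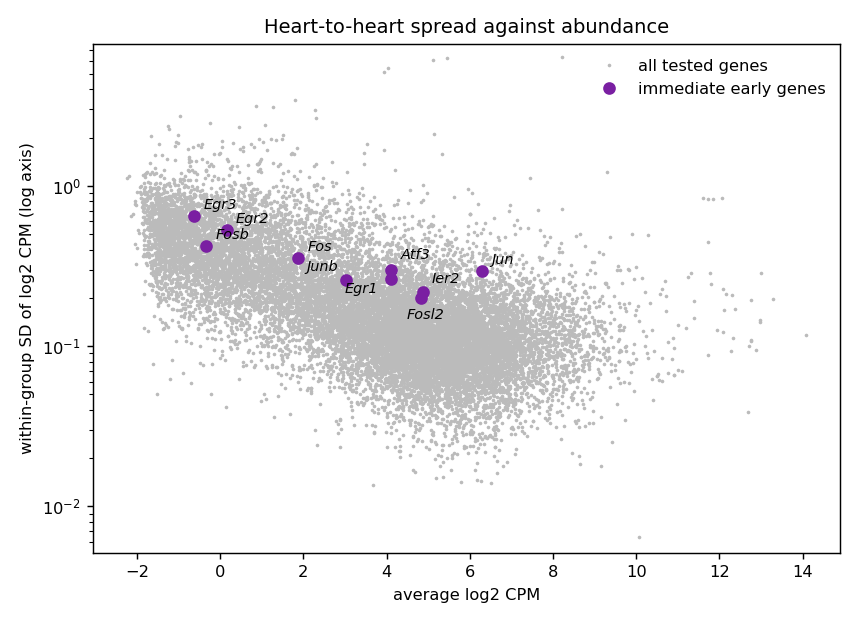
Within-group standard deviation of log2 CPM (log axis) against average log2 CPM for all 17125 tested genes (grey) and the 10 immediate early genes (purple). *Jun*, at a standard deviation of 0.29, lies above most genes of its abundance, whereas *Fosb*, at 0.42, lies within the cloud of low genes.

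The control hearts spread more than the mutant hearts for 8 of the 10 genes, with median standard deviations of 0.34 and 0.21 (log2). Over all tested genes the medians were 0.16 and 0.1199, and control hearts spread more for 62.5% of genes. *Egr2* was at 0.72 against 0.22, *Fosb* at 0.58 against 0.15, *Egr1* at 0.35 against 0.12 and *Fosl2* at 0.28 against 0.059. *Jun* and *Egr3* went the other way, at 0.19 and 0.54 in control hearts and 0.37 and 0.74 in mutant hearts.

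Many of the genes were highest in the same heart of each group. How much of their spread was shared was not measured. Control replicate 3 was the highest control heart for 10 of the 10 genes, against 32.4% of all tested genes, a heart singled out after these values were seen. It was also the highest of all 6 hearts for 7 genes, against 17.3% of tested genes. Among mutant hearts, replicate 3 was highest for 8 of the 10 genes, all but *Fosl2* and *Egr1*, against 38.3% of tested genes. The lowest control heart was replicate 1 for 5 genes and replicate 2 for the other 5.

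Averaged over the 10 genes, log2 CPM lay 0.47 above its mean over hearts in control replicate 3 and 0.16 above it in mutant replicate 3. Control replicates 1 and 2 were at -0.14 and -0.13, and mutant replicates 1 and 2 at -0.18 and -0.19. The members share each library and its scaling factor. With RLE size factors, control replicate 3 was the highest control heart for all 10 genes, against 32.7% of all tested genes. The same held with upper quartile scaling, library totals alone and counts thinned to the smallest total, against 29.5%, 25.7% and 32.1%. Only the highest control heart was compared between scalings.

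The same hearts differed in other RNA as well. The erythroid markers lay 1.23 above their mean (log2) in control replicate 3, which was also highest for 5 of the 6 erythroid genes among control hearts, and at -0.66 and -0.46 in mutant replicates 1 and 2. Mutant replicate 3, at -0.0038, was likewise the highest mutant heart for 5 of the 6. Control replicates 1 and 2, nearly level for the immediate early genes, were apart for the erythroid markers, at -0.41 and 0.30. Smooth muscle markers lay at 0.61 and cardiomyocyte markers at 0.24 in control replicate 3, and at -0.44 and -0.0033 in mutant replicate 3. Control replicate 3 had an intermediate depth and mutant replicate 3 the lowest. The heat shock list lay between -0.17 and 0.085 in all hearts, and at 0.071 in both control replicate 3 and mutant replicate 3. Mutant replicate 3 was the highest mutant heart for 10 of the 12 heat shock genes, against 38.3% of tested genes. Control replicate 3 was the highest control heart for 3 of them, against 32.4%. The part that the cell content of the hearts had in the immediate early gene values was not tested.

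**Figure D4:**
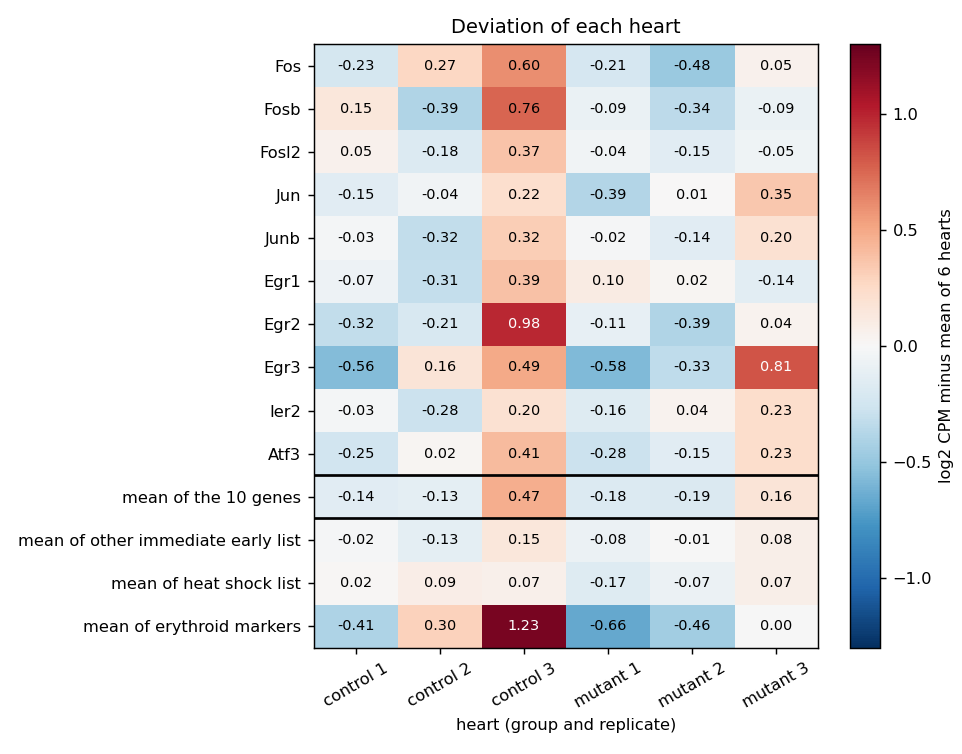
Deviation of log2 CPM from its mean over the 6 hearts, for each immediate early gene, their mean, and the means of 3 other lists (rows) in each heart (columns). Red is higher and blue lower, and control replicate 3 is above the mean in all 10 genes, from 0.20 in *Ier2* to 0.98 in *Egr2*.

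Several group differences depended on this heart. Without control replicate 3, the highest control heart for each gene, all 10 log2 fold changes had to move up, and 4 of them turned from negative to positive, to 0.19 for *Egr1*, 0.13 for *Egr2*, 0.22 for *Egr3* and 0.053 for *Atf3*. Then 3 of the 10 were below 0, against 49.3% of all tested genes, and 9.48% of all tested genes changed sign. That of *Fos* went from -0.46 to -0.24, that of *Fosb* from -0.44 to -0.09 and that of *Fosl2* from -0.18 to -0.02. Without control replicate 1, the control heart lowest for *Fos*, the value of *Fos* was -0.66 and its adjusted p was 0.137 from edgeR. In that fit *Fos* was the only one of the 10 with an unadjusted p under 0.05. Without control replicate 2 this held for *Fosl2* instead, at a log2 fold change of -0.30. None of the 10 passed an adjusted p of 0.05 in any fit that left out a heart.

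Leaving out control replicate 3 also narrowed the spread. This is partly built in, since that heart was singled out as the highest control heart for all 10 genes. The median standard deviation of the 10 genes was 0.21 without control replicate 3, against 0.28 to 0.34 in the 5 fits that left out another heart. No like value over all tested genes is given. Without control replicate 3 the standard deviation was smaller by over 1.5 times for 4 genes, at 0.18 for *Egr2*, 0.14 for *Egr1*, 0.11 for *Fosl2* and 0.25 for *Fosb*. For 4 other genes the spread was smallest without another heart: *Egr3* without mutant replicate 3, at 0.45, *Fos* without control replicate 1, at 0.26, *Jun* without mutant replicate 1, at 0.21, and *Ier2* without control replicate 2, at 0.18. Without control replicate 3 that of *Jun* was 0.30, against 0.29 with all hearts.

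**Figure D5:**
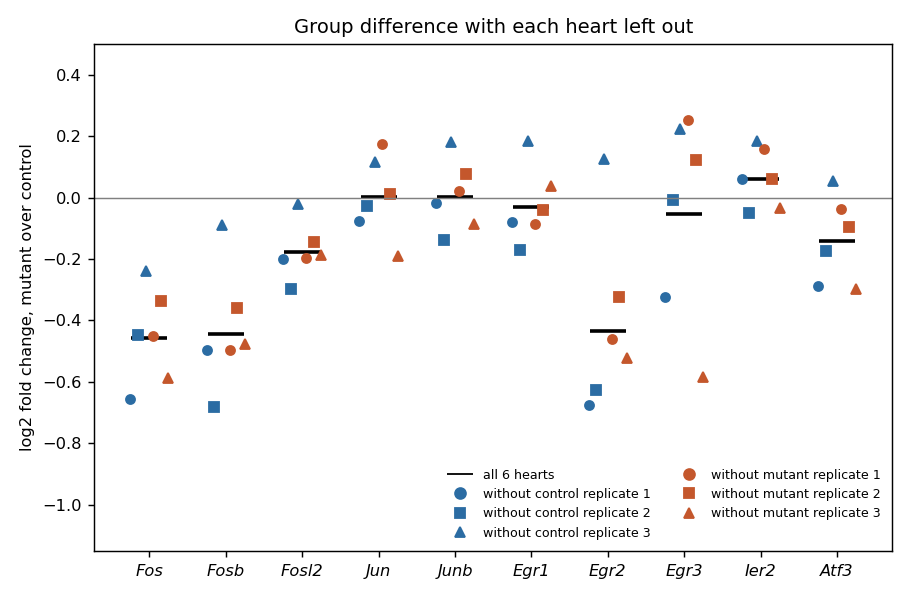
Log2 fold change of mutant over control with all 6 hearts (black bars) and with each heart left out in turn (points, colored by group and shaped by replicate number). The blue triangles, without control replicate 3, lie above the black bar for all 10 genes, as follows from that heart being the highest control heart for each.

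Genes of like pattern were sought among 11773 other genes with a mean of at least 5 CPM, by the root mean square difference of their deviations from the mean of the immediate early genes over the 6 hearts. The nearest was *Mafk*, a small MAF factor of the same bZIP class as FOS and JUN, with a difference of 0.036 (log2). It was at 20.1, 20.4 and 29.3 CPM in control and 19.6, 19.8 and 24.0 CPM in mutant hearts. *Cdr2*, *Otulin*, *Notch4* and *Adcy3* followed, with differences of 0.065 to 0.081. Among the 10 genes themselves *Atf3* was nearest to their mean, at 0.094, and *Egr3* farthest, at 0.38. With 6 hearts, likeness in this measure is a description of these libraries.

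A list of 38 other immediate early genes, of which 37 were tested, was examined in the same fit. None passed an adjusted p of 0.05. Mutant hearts were higher for 2 and lower for 4 genes with an unadjusted p under 0.05, against the 9.48% and 9.98% of all tested genes given above. The groups did not overlap for 7 of the 37, against 27.1% of tested genes. Control replicate 3 was the highest control heart for 24 of the 37 and mutant replicate 3 the highest mutant heart for 19, against 32.4% and 38.3% of tested genes. The median log2 fold change was -0.029.

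*Per1*, a clock gene that responds quickly to light and hormones, had the lowest p of the list. It was at 41.3, 47.1 and 43.7 CPM in control and 30.2, 26.1 and 27.1 CPM in mutant hearts, without overlap. Its log2 fold change was -0.66 (95% confidence interval -0.87 to -0.46, adjusted p = 0.065 from edgeR), and it was called lower by DESeq2, at an adjusted p of 1.2e-06. *Maff*, another small MAF factor, was at 11.6, 12.6 and 16.4 CPM against 8.81, 9.47 and 9.33 CPM, likewise without overlap, with a log2 fold change of -0.55 (adjusted p = 0.118 from edgeR and 0.018 from DESeq2). Control replicate 3 was the highest control heart for *Maff* too.

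*Klf6*, a zinc finger factor, had a log2 fold change of -0.25 and *Plk2*, a kinase, of 0.29 (adjusted p = 0.204 and 0.189 from edgeR). *Npas4*, known as an activity-dependent gene of neurons, is named because DESeq2 called it and no other gene of the list higher, and so was chosen after its values were seen. It was at 0.55, 0.58 and 0.31 CPM in control and 1.68, 1.06 and 1.37 CPM in mutant hearts (log2 fold change 1.52, adjusted p = 0.091 from edgeR and 0.013 from DESeq2). *Arc*, another such gene of neurons, also had a mean under 1 CPM and was named after its values were seen. It differed in the other direction, at 0.84, 0.48 and 0.99 CPM against 0.31, 0.42 and 0.41 CPM, without overlap (log2 fold change -1.04, adjusted p = 0.186 from edgeR and 0.228 from DESeq2). The other members of the AP-1 families did not pass the test: *Fosl1* was at 1.89 to 2.87 CPM in control and 1.82 to 2.84 CPM in mutant hearts, and *Jund* at 107.8 to 123.3 and 116.0 to 173.3 CPM.

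The factors and kinases upstream of these genes were also examined. Of 19 such genes, all tested, 0 passed an adjusted p of 0.05, while an unadjusted p under 0.05 was reached by 1 that was higher and 1 that was lower, against 9.48% and 9.98% of tested genes. *Srf*, the factor that binds the CArG box, was at 155, 201 and 203 CPM in control and 182, 178 and 219 CPM in mutant hearts, with a log2 fold change of 0.05 (95% confidence interval -0.24 to 0.34, adjusted p = 0.853 from edgeR). *Elk4*, a partner of SRF, had a log2 fold change of -0.27, and *Rps6ka1*, the gene of an RSK kinase activated by ERK, of 0.32 (adjusted p = 0.213 and 0.124 from edgeR). The median within-group standard deviation of these 19 genes was 0.092 (log2), against 0.297 for the 10 immediate early genes. It was 0.278 for stress genes often induced together with *Atf3* and 0.197 for the other immediate early genes. Muscle and cytoskeletal targets of SRF were at 0.155, partners and restrainers at 0.135 and heat shock genes at 0.083. These medians are not adjusted for abundance.

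Partners and restrainers of AP-1 and EGR factors gave a similar count. Of 16 genes, 0 passed an adjusted p of 0.05, while an unadjusted p under 0.05 was reached by 1 that was higher and by 0 that were lower, against the same 9.48% and 9.98%. That gene was *Batf*, a partner of JUN proteins in immune cells, at 1.02, 0.92 and 1.05 CPM in control and 1.70, 1.62 and 1.299 CPM in mutant hearts (log2 fold change 0.63, adjusted p = 0.195 from edgeR). Of 12 heat shock genes 0 passed an adjusted p of 0.05, and at an unadjusted p under 0.05 0 were higher and 1 was lower (9.48% and 9.98% of tested genes), *Hspa1b*, with a log2 fold change of -0.56 (adjusted p = 0.229 from edgeR). Reads of *Hspa1b* can be split with its near-identical copy *Hspa1a*, so its value is uncertain.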

How the data were processed

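RNA from each whole heart was made into NEBNext Ultra libraries. The authors mapped paired-end reads to GRCm38 with STAR (version 2.4.2a, GENCODE vM6) and counted them per gene with summarizeOverlaps, and these raw counts were deposited without normalization. The deposited second table holds the authors' DESeq2 comparison, of which only identifiers and gene symbols were read. Columns were matched to samples by their titles.

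The test was that of edgeR 4.0.16, run in R 4.3.3: filterByExpr (minimum count 10, minimum total 15), TMM scaling and a quasi-likelihood test with genotype as the only term, and p-values were adjusted by Benjamini-Hochberg across the 17125 genes kept, at a threshold of 0.05. The standard error was taken as the log2 fold change divided by the square root of F. Within-group standard deviations were taken on log2 CPM with a prior count of 2. Coordinates and exon lengths are from GENCODE vM21 on GRCm38. Hearts differed by more than counting noise (chi-square per degree of freedom at least 19.0), so each was 1 replicate. Each came from 1 embryo. The methods state that littermate controls and several litters were used in the study, but the labels do not tie hearts to litters.

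Depth was 28948836 to 89675692 counts per heart. The alternatives were RLE factors, DESeq2 1.42.0, 2 other filters, thinned counts, leaving out each heart and a replicate block; other scalings were added after seeing the data. Steps were tested on simulated counts. The members, lists and motifs were chosen with earlier results of these data known, and lists were compiled from general knowledge. In each other list, up to 3 genes per direction were named by size of change among those at an unadjusted p under 0.05 and a mean of at least 1 CPM, with *Ino80*, *Srf*, *Jund* and *Fosl1* named in any case, and 5 genes of like pattern.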

Additional observations from a re-analysis of the deposited data

How the results depend on the processing

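The count of immediate early genes past an adjusted p of 0.05 was 0 with every alternative run. A filter of at least 1 CPM in 3 hearts removed *Fosb*, *Egr2* and *Egr3* from the test. Over all tested genes the count of calls was 0 with edgeR as reported, 1013 with DESeq2, 603 when any gene with a count was tested, 9 with thinned counts, 14 with the replicate number as a block, and 0 to 751 when a heart was left out, with 751 without control replicate 1 and 3 without control replicate 2. Over the genes of the 6 other lists it was 0 as reported, 8 with DESeq2, 5 when any gene with a count was tested, 1 with thinned counts and 0 to 3 when a heart was left out, again most without control replicate 1. The cause was not tested. At an unadjusted p under 0.05 the count of immediate early genes was 0 to 1 when a heart was left out.

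*Fos*, *Fosb* and *Fosl2* kept their negative sign under every alternative that gave a value. Their ranges with a heart left out were -0.66 to -0.24, -0.68 to -0.09 and -0.30 to -0.02, each nearest to 0 without control replicate 3. The other 7 changed sign under at least 1 alternative. *Jun* was at -0.0035 with RLE factors, -4.8e-04 with DESeq2, -0.027 with thinned counts and -0.018 with the replicate block, and *Junb* at -0.0023, -0.0012 and -0.059 with the first 3 of these. *Egr3* was at 0.21 with thinned counts. With a heart left out, log2 fold changes ran from -0.19 to 0.17 for *Jun*, -0.14 to 0.18 for *Junb*, -0.59 to 0.25 for *Egr3*, -0.17 to 0.19 for *Egr1*, -0.68 to 0.13 for *Egr2*, -0.050 to 0.19 for *Ier2* and -0.30 to 0.053 for *Atf3*.

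Nothing in the labels ties same-numbered hearts beyond the number. Their deviations from the group mean over 14635 genes correlated at -0.0032, -0.13 and -0.17, and those of differently numbered hearts at -0.096 to 0.19. With so few hearts, whose deviations sum to 0 within a group, these values cannot show whether same-numbered hearts were paired. The replicate block changed no call on the 10 genes. Counts were fewest for *Fosb*, *Egr2* and *Egr3*, at 15 to 88 per heart. With all hearts their spread was larger than counting error. Without control replicate 3 it was 0.25 for *Fosb* and 0.18 for *Egr2*, below their counting errors of 0.28 and 0.24 over all hearts. The spread of *Fosb* was also just below its counting error without control replicate 2, at 0.278 against 0.280.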

Other observations

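Genes further along the same signals were examined in the same fit. Of 14 muscle and cytoskeletal targets of SRF, 0 passed an adjusted p of 0.05 with edgeR, and at an unadjusted p under 0.05 2 were higher and 1 lower, against 9.48% and 9.98% of all tested genes. *Cnn1*, also in the list of smooth muscle markers, and *Cnn2*, which encode calponins that bind actin, had log2 fold changes of 0.48 and 0.27, and DESeq2 called both higher (adjusted p = 0.014 and 0.046). *Fhl2*, a LIM protein of cardiac muscle, was at 240, 321 and 276 CPM in control and 157, 174 and 215 CPM in mutant hearts, without overlap (log2 fold change -0.62, adjusted p = 0.10 from edgeR and 0.0011 from DESeq2). The list thus held both directions, with a median of 0.036.

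Of 10 stress genes that are often induced together with *Atf3*, 0 passed an adjusted p of 0.05 with edgeR, and at an unadjusted p under 0.05 1 was higher and 1 lower, against 9.48% and 9.98% of all tested genes. *Cdkn1a*, the p21 inhibitor of the cell cycle, was at 32.7, 28.3 and 44.0 CPM in control and 19.8, 23.4 and 22.7 CPM in mutant hearts, without overlap (log2 fold change -0.67, adjusted p = 0.10 from edgeR and 0.0027 from DESeq2). *Asns*, which makes asparagine, was at 11.7, 12.3 and 10.7 CPM against 14.9, 15.6 and 14.9 CPM (log2 fold change 0.39, adjusted p = 0.110 from edgeR and 0.038 from DESeq2). *Atf3* itself overlapped between the groups, and control replicate 3 was the highest control heart for 8 of these 10 genes, against 32.4% of all tested genes, while mutant replicate 3 was the highest mutant heart for 2.

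The connective tissue growth factors *Ctgf* and *Cyr61*, targets of stretch and growth signals in the list of other immediate early genes, are named for their spread, seen after the values were known. *Ctgf* was at 54.3, 71.3 and 132.9 CPM in control and 56.6, 72.0 and 94.7 CPM in mutant hearts, and *Cyr61* at 25.2, 37.4 and 51.2 CPM against 29.97, 33.4 and 40.4 CPM. In both genes the highest heart of each group was replicate 3, and the groups overlapped. In *Per1*, *Plk2* and *Npas4*, of the same list, control replicate 3 was not the highest control heart.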
